A study of Mus musculus with 10 samples.

Results

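Bone marrow-derived basophils (BMBs) were given IgE and then its antigen, and their transcriptome was set against that of unstimulated BMBs. The comparison is of 4 of the 10 arrays of the series, chosen by their labels as the basophil arrays, 2 with IgE stimulation and 2 without. It covers 13571 of the 19937 named genes on the array, those above background on at least 1 of the 10 arrays. Of these, 12631 were above background on at least 1 BMB array. The 4 arrays are unstimulated B6 BMBs (wild type), unstimulated Slpi-/- BMBs, B6 BMBs with IgE and Slpi-/- BMBs with IgE, all of strain C57BL6/N, with 1 array per condition, so that the genotypes form 2 pairs of arrays. BM cells were cultured with IL-3, and the c-kit-negative DX5-positive fraction was sorted on day 12. Stimulated cells were incubated with anti-TNP-IgE for 1 h and then with TNP-OVA, ovalbumin that carries the TNP hapten this IgE binds, for 12 h. The unstimulated arrays had neither IgE nor antigen, so that the effect of IgE alone cannot be told apart from that of the antigen. Doses for the array samples, and how many mice or cultures contributed RNA to each, are not given in the sources used here. The RNA was read on Affymetrix GeneChip Mouse Gene 1.0 ST arrays, and every signal below is a log2 value from robust multi-array averaging (RMA), as the authors deposited it.

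Basophils carry IgE on the high-affinity receptor FcεRI, whose α chain binds the antibody while the β and γ chains signal. When a multivalent antigen crosslinks the bound IgE, the kinases Lyn and Syk phosphorylate the adaptor LAT, phospholipase Cγ raises cytosolic calcium, and the MAP kinase, NFAT and NF-κB pathways are engaged. Preformed granules with histamine and proteases are released at once, lipid mediators follow, and cytokines such as IL-4, IL-6 and IL-13 are made from newly transcribed genes over hours. Basophils are known as an early source of IL-4 and IL-13 in allergic inflammation.

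The arrays matched their labels as basophils. Mcpt8, a basophil protease gene, read 12.96 and 12.72 on the unstimulated B6 and Slpi-/- arrays and 12.94 and 13.29 with IgE. Prss34, which encodes the basophil tryptase mMCP-11, read 12.99 and 12.78 without and 12.57 and 12.70 with IgE. Of 11 basophil marker genes, 10 or 11 lay above background on each array, background being the 95th percentile of 1027 olfactory receptor genes there (5.56 to 5.68). That count does not set basophils apart from mast cells. Of the 11 genes, only Mcpt8 (5.43 and 5.13) and Itga2 lay below background on the unstimulated B6 and Slpi-/- mast cell arrays. Prss34 read 6.6 and 6.2 there, and Fcer1a 12.2 and 12.2. Slpi, the gene deleted in the Slpi-/- cells, read 11.42 and 11.33 on the B6 arrays without and with IgE and 6.55 and 6.35 on the Slpi-/- arrays, and its IgE term did not pass the test (-0.15, SE 0.12, limma adjusted p = 0.44). Cma1, a chymase gene of mast cells, lay close to background at 5.61 to 5.98 on the BMB arrays. Epx, the eosinophil peroxidase gene, lay below it at 4.69 to 4.97. Other mast cell markers read higher on these arrays: Cpa3 12.72 to 12.94, Tpsb2 10.49 to 11.51, Mitf 7.19 to 7.73 and Kit 5.85 to 6.89. In all, 5 of 11 mast cell markers lay above background on each array. So did 2 of 7 eosinophil markers, Alox15 (given below) and Siglecf (6.38 to 6.89). Some genes of other cells stood apart on 1 array. Mpo, the myeloperoxidase gene of neutrophil granules, read 8.84 on the unstimulated B6 array and 5.60 to 6.0 on the others, and 10 of 14 neutrophil markers lay above background there against 5 to 7 on the others. The summed linear signal of those 14 genes was 9603 and 9927 on the unstimulated B6 and Slpi-/- arrays and 5040 and 5288 with IgE, and Ly6g (12.38 and 12.68 without, 10.95 and 11.15 with IgE) makes up much of it. Ppbp, a platelet chemokine gene, read 8.81 on the B6 array with IgE and 10.81 to 11.45 on the others. The summed signal of the 8 platelet markers was 3294 on that array and 5894 to 7551 on the others. In bulk RNA, fewer cells of a type and less RNA per cell cannot be told apart, and the part of these cells in the results below was not tested.

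IgE and antigen changed a large share of the basophil transcriptome. The signals were compared with limma over all genes above background on at least 1 array, with baselines that differ by cell type and by genotype and 1 IgE term common to both genotypes. At an adjusted p below 0.05, 1655 genes rose (12.2% of those tested) and 1436 fell (10.6%), while 10480 did not pass. The counts of every gene list below are to be read against these shares. The fold changes of the risen genes were 1.25 to 14.2 and those of the fallen genes 1.25 to 12.3, and the median over all genes tested was -0.02 on the log2 scale. The counts depend on the pair of arrays: without the Slpi-/- pair 558 genes rose and 545 fell, and without the B6 pair 1250 rose and 889 fell. Leaving out a pair leaves the IgE term on 1 array against 1, with the spread taken from the other cells. A sign-flip test of a single gene on 2 pairs cannot give an exact two-sided p below 0.5, so that every call rests on the spread limma shares across genes, and this spread may be technical.

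Metabolic enzymes, receptors and cytokines were among the genes with the largest rise. Gem, a small GTPase that restrains calcium channels, read 7.86 and 6.69 on the unstimulated B6 and Slpi-/- arrays and 11.07 and 11.13 with IgE. Its IgE term was 3.82 (SE 0.27), a 14.2-fold rise with a limma adjusted p of 0.00095. Ak4, a mitochondrial adenylate kinase known as a hypoxia target, read 4.74 and 4.95 without and 8.61 and 8.51 with IgE. Its unstimulated signals were not above background, so that the rise was at least 7.65-fold (limma adjusted p = 0.00013). The groups did not overlap for either gene, which a choice of the largest rises on these same arrays favours. Ptprg, a receptor tyrosine phosphatase, went from 6.75 and 5.07 to 9.92 and 9.14, and Tnfrsf9, the costimulatory receptor 4-1BB, from 6.73 and 7.47 to 10.51 and 9.95. Tph1, the first enzyme of serotonin synthesis, went from 5.76 and 5.79 to 9.52 and 7.93, a 7.73-fold rise (log2 2.95, SE 0.34, limma adjusted p = 0.0027) that was larger in B6 cells. Tlr2, a receptor for bacterial lipopeptides, read 9.04 in B6 and 6.90 in Slpi-/- BMBs without IgE and 10.80 and 10.44 with it. These receptor and enzyme genes started or ended at different signals in the genotypes. Every stimulated signal exceeded every unstimulated one, which the choice by size of the rise also favours.

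The other genes among the 25 with the largest rise fall in a few kinds. Hmox1, the haem-degrading enzyme heme oxygenase-1, went from 8.04 and 7.95 to 10.61 and 9.89. Nt5e, the ectonucleotidase CD73 that forms adenosine, went from 6.98 and 6.45 to 9.09 and 8.70, and Car12, a membrane carbonic anhydrase, from 5.03 and 4.87, not above background, to 7.53 and 7.23, at least 3.36-fold. Enzymes that act outside the cell or on its surface were thus among those that rose. Mmp13, a collagenase, went from 5.89 and 6.03 to 7.80 and 8.46, and Cemip, a hyaluronan-degrading protein, from 4.72 and 4.98 to 6.46 and 7.79, at least 2.83-fold. Arnt2, a partner of PAS-domain transcription factors, went from 6.47 and 5.95 to 8.41 and 8.85. Tmtc2, Dctd (dCMP deaminase) and Ift57 rose 6.53-fold, 4.53-fold and 4.27-fold. All 25 genes passed in each of the 11 limma alternatives. AI506816 was the least even of them, with 8.17 and 5.05 without and 9.38 and 9.55 with IgE, and an adjusted p of up to 0.041 in those alternatives.

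The largest fall was that of Alox15, the 12/15-lipoxygenase that makes hydroxy fatty acids from arachidonic acid. It read 9.95 and 10.30 on the unstimulated B6 and Slpi-/- arrays and 5.99 and 7.02 with IgE, a 12.3-fold fall (log2 -3.62, SE 0.16, limma adjusted p = 0.00024). Alox15 is also on the eosinophil marker list, of whose 7 genes 2 lay above background on each array, while Epx was below it throughout. The summed linear signals of the 7 were 1268 and 1559 without and 300.1 and 372 with IgE. Alox15 itself makes up most of the unstimulated sums, so that their fall largely repeats its own. Igsf6, an immunoglobulin superfamily receptor of myeloid cells, went from 10.31 and 10.53 to 7.10 and 7.64. Mmp27, a matrix metalloproteinase gene, went from 8.15 and 8.27 to 5.05 and 5.20, which is not above background, at least 6.09-fold. In these genes the stimulated arrays lay far below the unstimulated ones in both genotypes. Vaultrc5, a vault RNA gene, went from 9.44 and 9.01 to 6.62 and 5.52, and Nxpe4 from 8.56 and 9.40 to 5.72 and 5.99. Gda, the guanine deaminase, went from 8.27 and 8.02 to 5.72 and 6.01. Samhd1, a dNTP hydrolase that limits retroviruses, went from 10.22 and 10.43 to 8.50 and 8.34. Lipid enzymes were also among the 25 genes with the largest fall: Chpt1 (phosphatidylcholine synthesis) fell 4.65-fold, Hacd4 (very long chain fatty acids) 4.11-fold and Dgat1 (triglyceride synthesis) 3.68-fold. Vmn1r21 (6.36 and 7.49 to 4.31 and 4.34) and Lypd6b (7.45 and 7.98 to 5.30 and 5.28) ended below background and fell at least 2.49-fold and 4.32-fold. All 25 passed in each of the 11 limma alternatives, with adjusted p up to 0.041 for Pde7b, a cAMP phosphodiesterase gene. H2bc8, a histone H2B gene, is a member of a family with near-identical copies, and its fall (9.16 and 9.69 to 6.87 and 7.22) may hold signal of its relatives.

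**Figure D1:**
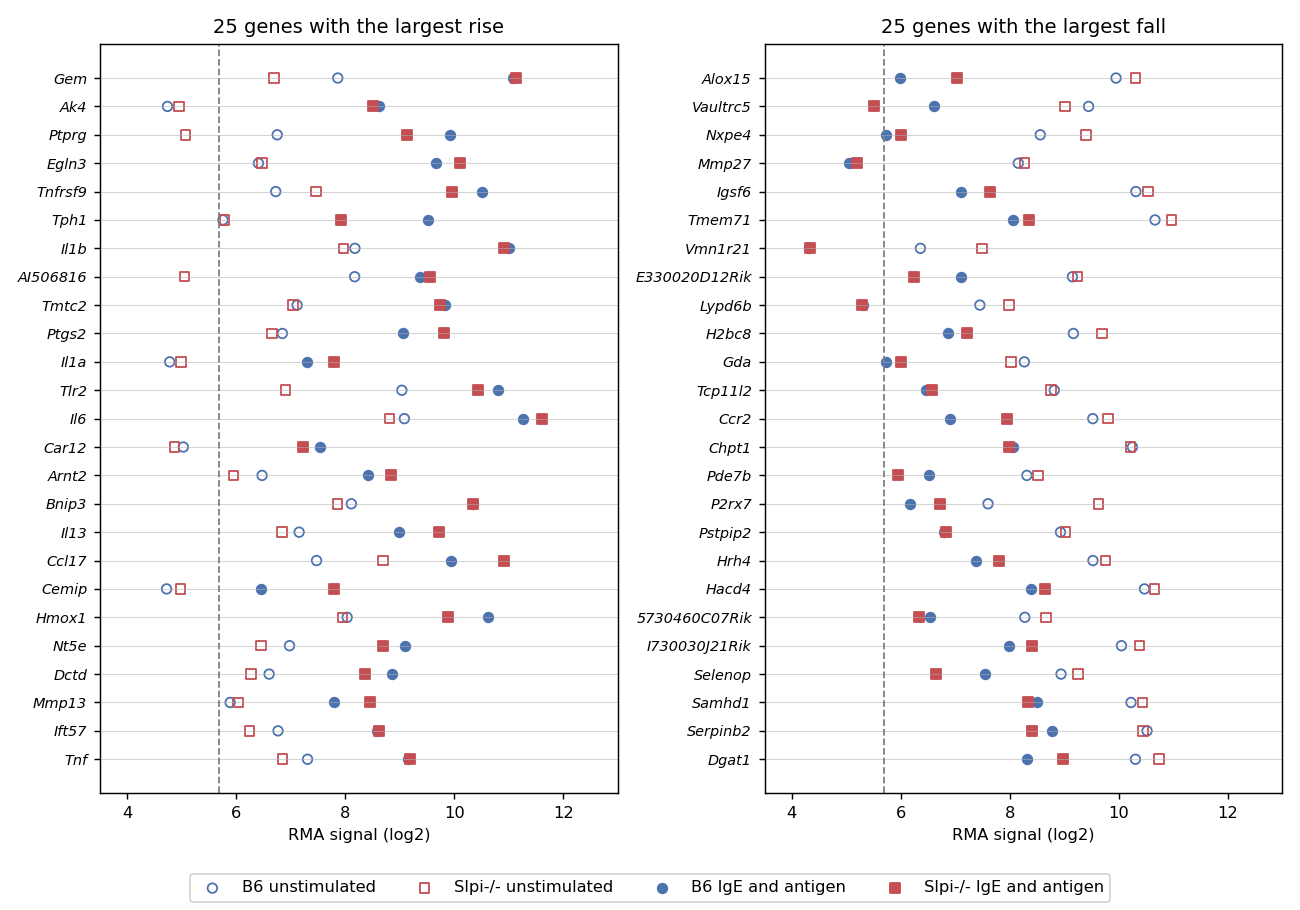
RMA signals (log2) of the 25 genes with the largest rise (left) and the largest fall (right) on the 4 BMB arrays, 1 point an array, with the highest background of the 4 arrays (5.68) as a dashed line. Open symbols are unstimulated and filled symbols stimulated cells, circles B6 and squares Slpi-/-. For every gene shown the filled symbols stand on the same side of the open ones, which the choice by size of the change favours.

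Cytokine genes were among those with the clearest response. Of the type 2 and growth factor cytokine list, 11 of 18 measured genes were tested, of which 6 rose and 1 fell, with a median IgE term of 0.85 on the log2 scale against -0.02 over all genes tested. Il13, a type 2 cytokine of allergic tissue, read 7.15 and 6.84 without and 8.98 and 9.71 with IgE, a 5.11-fold rise (log2 2.35, SE 0.23, limma adjusted p = 0.0017). Il4, the cytokine that drives IgE class switching, went from 7.23 and 7.36 to 7.99 and 8.33, 1.82-fold (log2 0.86, SE 0.15, limma adjusted p = 0.010). Il4 thus rose less than Il13, and it did not pass without the Slpi-/- pair (adjusted p = 0.11). Lif went from 9.95 and 8.73 to 11.12 and 11.10, and Osm from 10.52 and 10.10 to 11.56 and 11.55, both cytokines of the gp130 family. Tgfb1, an immunoregulatory cytokine, went from 10.97 and 10.78 to 11.70 and 11.74. Csf2, which encodes GM-CSF, went from 4.52 and 4.23 to 5.61 and 5.59, and only the B6 array with IgE lay just above its background. Csf1, the macrophage growth factor, read 11.11 and 10.94 without and 10.62 and 10.57 with IgE, a log2 fall of -0.43.

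Of the inflammatory and regulatory cytokine list, 16 of 29 measured genes were tested, of which 7 rose and 3 fell, with a median of 0.15. Il1b went from 8.18 and 7.97 to 11.01 and 10.91, 7.40-fold (log2 2.89, SE 0.15, limma adjusted p = 0.00036). Il6 went from 9.09 and 8.81 to 11.26 and 11.61, 5.61-fold (log2 2.49, SE 0.16, limma adjusted p = 0.00071). Tnf went from 7.31 and 6.85 to 9.15 and 9.18, 4.25-fold (log2 2.09, SE 0.14, limma adjusted p = 0.00078). For these 3 pyrogenic cytokines the genotypes ended within 0.35 of each other. Il1a, the cell-associated IL-1, started below background at 4.78 and 4.99 and reached 7.30 and 7.80, at least 3.80-fold. Tnfsf9, the ligand of 4-1BB, went from 5.49 and 5.19, not above background, to 6.67 and 6.96, at least 2.28-fold, beside the rise of its receptor gene Tnfrsf9. Tnfsf14, the cytokine LIGHT, went from 9.66 and 9.08 to 10.85 and 10.78. Il1rn, the IL-1 receptor antagonist, read 7.30 and 7.60 without and 6.41 and 7.19 with IgE, a log2 fall of -0.65 (limma adjusted p = 0.017), and Ltb and Ebi3 fell by 0.48 and 0.44. Without the B6 pair 2 of these genes fell, and without the Slpi-/- pair 1.

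Of 14 CC chemokine genes tested, 3 rose (21.4%) and 1 fell (7.14%), with a median of 0.23, and of 8 CXC and XC chemokine genes 1 rose (12.5%), with a median of -0.16, against 12.2% and 10.6% over all genes tested. When the B6 pair was left out, 6 CC chemokine genes rose and 2 CXC and XC genes fell. Ccl17, a ligand of CCR4 on Th2 cells, went from 7.47 and 8.69 to 9.94 and 10.91, 5.05-fold (log2 2.34, SE 0.11, limma adjusted p = 0.00024). The Ccl17 signal was higher in Slpi-/- cells in either state, and the rise was 2.46 in B6 and 2.21 in Slpi-/- cells. Ccl4 went from 9.04 and 8.54 to 10.34 and 10.97, and Cxcl2, a neutrophil attractant, from 5.91 and 6.0 to 6.62 and 7.37. Ccl22, the other CCR4 ligand, did not pass: it read 7.58 and 9.23 without and 9.04 and 9.62 with IgE (log2 0.92, SE 0.27, limma adjusted p = 0.056).

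**Figure D2:**
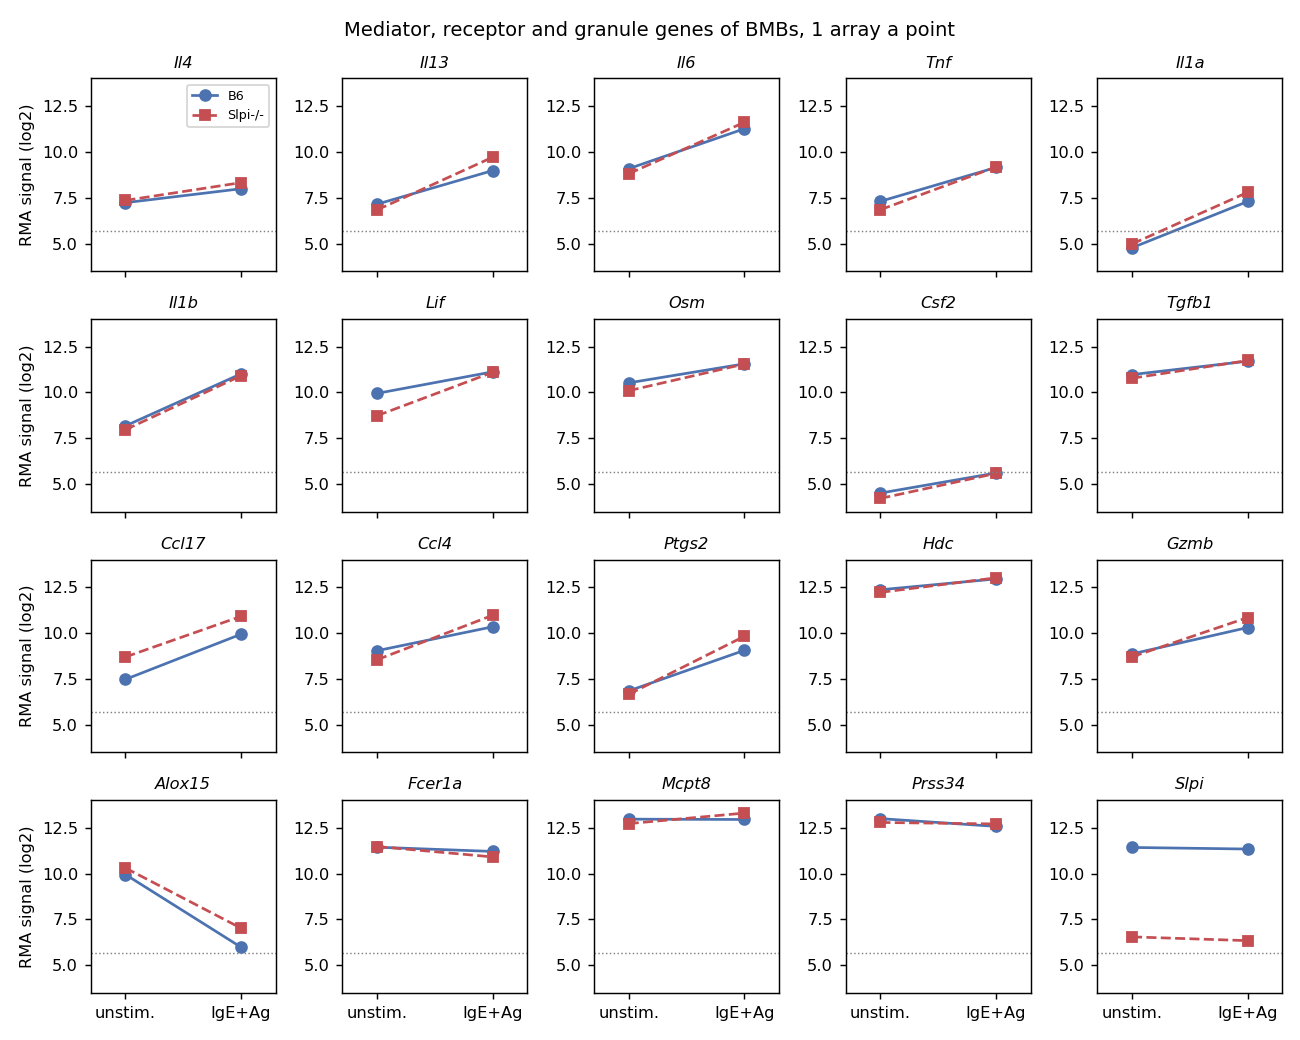
RMA signals (log2) of 20 mediator, receptor and granule genes in BMBs, each line joining the unstimulated and the stimulated array (IgE and antigen) of 1 genotype, circles and solid lines B6, squares and dashed lines Slpi-/-, with the highest background (5.68) dotted. Il13, Il6, Tnf, Il1a and Il1b go up in both genotypes, Alox15 goes down, and Slpi stays between 6.35 and 6.55 in Slpi-/- cells.

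The receptor that starts the response showed small changes. Of 7 IgE and IgG Fc receptor genes tested, Fcer1a and Fcgr3 fell (28.6%, against 10.6% over all genes tested) and 5 did not pass. Fcer1a, the IgE-binding α chain, read 11.43 and 11.47 without and 11.20 and 10.90 with IgE, a 1.32-fold fall (log2 -0.40, SE 0.11, limma adjusted p = 0.048). This call was lost in 4 of the 11 limma alternatives. Fcgr3, an activating IgG receptor, went from 10.80 and 10.94 to 9.99 and 10.39, a 1.60-fold fall (limma adjusted p = 0.0067). Ms4a2, the β chain, read 11.43 and 11.31 without and 11.55 and 11.44 with IgE, and Fcer1g, the γ chain, 12.29 and 12.31 without and 12.37 and 12.43 with IgE. Neither passed.

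Genes downstream of the receptor moved in both directions. Of 32 genes of proximal IgE receptor signalling, 7 rose (21.9%) and 5 fell (15.6%), with a median of 0.00. Over all genes tested these shares were 12.2% and 10.6%. Lat, the adaptor that assembles the signalling complex, went from 10.38 and 10.21 to 11.09 and 10.90, and Dok2, an inhibitory adaptor of the Ras pathway, from 7.82 and 7.94 to 8.51 and 8.80. Prkcb, a protein kinase C, went from 9.69 and 9.52 to 10.36 and 10.14. Plcg1, a phospholipase Cγ, went down from 9.24 and 9.37 to 8.61 and 8.36 (log2 -0.82, SE 0.12, limma adjusted p = 0.0053), and Stim1, the calcium sensor of the endoplasmic reticulum (ER), from 7.85 and 7.89 to 7.09 and 7.41. Of these, 4 rose and 3 fell without the B6 pair, and 2 rose and 2 fell without the Slpi-/- pair. Inhibitory receptors also split: 4 of 25 tested rose and 7 fell, against 4 and 4 without the B6 pair and 1 and 3 without the Slpi-/- pair. Cd300a, an inhibitory receptor for phospholipids, went from 8.84 and 9.23 to 7.35 and 7.33, a 3.24-fold fall (limma adjusted p = 0.0011), and Cd300lb, an activating relative, from 8.58 and 8.82 to 7.41 and 7.38. Pilra went from 8.40 and 7.04 to 9.22 and 9.12.

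Genes that are known as targets and brakes of receptor signalling were read at a single time, 12 h of antigen. Of 30 immediate early, EGR and NR4A genes, 12 rose (40%) and 2 fell (6.67%), with a median of 0.27, against 12.2% and 10.6% over all genes tested. Fosl1, the AP-1 subunit Fra-1, went from 5.03 and 5.10, not above background, to 7.08 and 6.97, at least 2.64-fold. Egr2 and Egr3, zinc finger factors induced by NFAT, went from 6.12 and 5.99 to 7.11 and 7.52 and from 7.28 and 6.93 to 8.01 and 8.39. Fos itself read 5.69 and 5.80 without and 5.16 and 5.31 with IgE. Its stimulated signals were not above background, a fall of at least 1.10-fold. Only 6 genes of this list rose without the Slpi-/- pair. Of 24 MAP kinase and Ras feedback genes, 10 rose (41.7%) and 1 fell (4.17%), with a median of 0.31. Dusp4 and Dusp5, phosphatases of MAP kinases, went from 5.67 and 5.23 to 7.51 and 6.59 and from 7.68 and 7.67 to 8.74 and 8.98, and Spry4, an inhibitor of Ras signalling, rose by 0.85 on the log2 scale. Only 4 of these rose without the Slpi-/- pair. Of 22 cytokine feedback genes, 5 rose and 4 fell, and 1 fell without the Slpi-/- pair. Cish went from 9.71 and 9.02 to 10.65 and 10.70, Socs1 from 8.84 and 8.18 to 9.78 and 9.78, and Socs3 from 7.62 and 7.36 to 8.77 and 8.66, all inhibitors of JAK and STAT signalling. Pim2 and Pim3, kinases induced by STAT5, rose 2.47-fold and 1.79-fold. Bcl6, a transcriptional repressor, and Stat5b fell by 0.82 and 0.58.

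The NF-κB and interferon lists stood apart from the cytokine lists. Of 25 NF-κB subunits, inhibitors and targets, 1 rose and 1 fell. The riser was Ptgs2, the inducible cyclooxygenase, which went from 6.85 and 6.66 to 9.06 and 9.82, 6.43-fold (limma adjusted p = 0.0014), and the faller was Birc3 (7.65 and 7.80 to 7.01 and 7.11), an inhibitor of cell death. Of 26 interferon-induced genes, limma called 0 in either direction, with 4 at an unadjusted p below 0.05. Limma with a trend of the variance called 1, which rose, and limma on the BMB arrays alone called 1, which fell. Some genes of the list also passed, as falls, when the B6 pair was left out, which leaves 1 array against 1. The methods' t-test called 0 of all 13571 genes tested, so that its 0 for this list carries no information. In the NF-κB list 4 genes fell without the B6 pair. The median of the interferon list was -0.18, with -0.17 in B6 and -0.19 in Slpi-/- cells. A share of 4% in each direction for the NF-κB list, and of 0% for the interferon list, lies below the 12.2% and 10.6% over all genes tested. Il6, Tnf and Il1b, which rose, stand on the inflammatory cytokine list and not on the NF-κB list. The share of the NF-κB list thus depends on how genes were divided among the lists.

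Of 29 cytokine and growth factor receptor genes, 1 rose (3.45%) and 10 fell (34.5%), a median of -0.25. Il1rap, the shared subunit of the IL-1, IL-33 and IL-36 receptors, went from 7.42 and 7.61 to 6.21 and 6.48, 2.25-fold (log2 -1.17, SE 0.10, limma adjusted p = 0.0014). Il7r, a receptor chain for IL-7 and TSLP, went from 9.75 and 10.28 to 8.80 and 9.16, and Il18r1 from 9.62 and 9.65 to 8.36 and 8.95. Il3ra, the α chain of the receptor for IL-3, the basophil growth factor, went from 9.60 and 9.47 to 9.15 and 9.01 (log2 -0.45, limma adjusted p = 0.019). The riser was Il4ra, the α chain of the IL-4 receptor, with 0.46 on the log2 scale. Without the Slpi-/- pair 6 of the list fell, and without the B6 pair 7 fell. Of 29 chemoattractant receptor genes, 3 rose (10.3%) and 6 fell (20.7%), against 12.2% and 10.6% over all genes tested. Ccr2 went from 9.52 and 9.80 to 6.90 and 7.95, a 4.71-fold fall (limma adjusted p = 0.0013), Ccr3 from 6.78 and 7.55 to 4.63 and 6.36, and Hrh4, the histamine H4 receptor, from 9.52 and 9.75 to 7.37 and 7.79. P2rx7, a receptor for extracellular ATP, went from 7.60 and 9.63 to 6.18 and 6.72. S1pr1, whose ligand guides exit of cells into the blood, went from 9.93 and 10.07 to 8.75 and 8.74. C5ar1, the receptor for the complement peptide C5a, went the other way, from 8.55 and 8.50 to 9.30 and 9.77. Ccr2 is also on the monocyte marker list, of whose 15 genes 9 or 10 lay above background on each array. Their summed linear signals were 4811 and 4159 without and 5188 and 5051 with IgE. Adgre1 (11.3 and 10.8 without, 11.9 and 11.6 with IgE) makes up much of these sums. Adgre1 and Itgax rose, Ccr2 and Mrc1 fell, and the other 11 genes did not pass.

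Of 19 granule protease and inhibitor genes tested, 3 rose (15.8%) and 1 fell (5.26%), shares near the 12.2% and 10.6% over all genes tested. Gzmb, granzyme B, went from 8.86 and 8.70 to 10.30 and 10.84, 3.45-fold (log2 1.79, SE 0.17, limma adjusted p = 0.0017), and Tpsg1, a membrane-anchored tryptase, from 9.46 and 8.67 to 10.54 and 9.89. Without the B6 pair 5 of this list rose, and without the Slpi-/- pair 3 fell. Serpinb1a, an inhibitor of elastase-like proteases, rose 1.95-fold, whereas Serpinb2, the plasminogen activator inhibitor PAI-2, went from 10.52 and 10.44 to 8.76 and 8.41. Mcpt8 and Prss34, described above, did not pass (limma adjusted p = 0.25 and 0.31). Hdc, the enzyme that makes histamine, went from 12.35 and 12.21 to 12.94 and 13.01, 1.62-fold (limma adjusted p = 0.0076), and Slc18a2, the transporter that loads histamine into granules, from 11.35 and 11.70 to 10.88 and 10.42. These calls of Hdc and Slc18a2 were lost without the Slpi-/- pair (limma adjusted p = 0.082 and 0.25). Of the histamine receptors, Hrh2 went from 7.24 and 7.12 to 7.94 and 7.98 (limma adjusted p = 0.0034), opposite to Hrh4. Of 17 leukotriene and prostaglandin genes, 3 rose and 3 fell, and without the Slpi-/- pair 1 rose and 2 fell. Beside Ptgs2 and Alox15, Lpcat2, an enzyme of platelet-activating factor synthesis, went from 9.27 and 9.25 to 7.94 and 8.57, and Ptges, a prostaglandin E synthase, from 6.43 and 6.67 to 5.84 and 5.79.

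Of 29 exocytosis genes, 1 rose (3.45%) and 10 fell (34.5%), with a median of -0.19, against 12.2% and 10.6% over all genes tested. Lyst, a regulator of lysosome-related organelles, went from 10.51 and 10.93 to 9.48 and 9.43, a 2.40-fold fall (log2 -1.26, SE 0.13, limma adjusted p = 0.0020). Sytl1 and Syt11, synaptotagmin relatives, Stx11, a SNARE of lytic granules, and Unc13d, the priming factor Munc13-4, fell by 0.74, 0.67, 0.59 and 0.52. Rab27b, a GTPase of secretory granules, went up from 8.35 and 7.74 to 8.86 and 8.48. Without the B6 pair 4 of the list fell, and without the Slpi-/- pair 2 fell. Of 32 lysosomal genes 3 rose (9.4%) and 8 fell (25%). Among those that fell was Ctsl, the protease cathepsin L, which went from 8.95 and 9.22 to 8.02 and 8.05. Without the B6 pair 3 of these fell, and without the Slpi-/- pair 1 fell.

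Genes of the hypoxia response and of glycolysis rose together. The transcription factor HIF-1 is known to bind the core ACGTG upstream of glycolytic genes, both in low oxygen and in activated leukocytes. Of 30 genes of that list, 21 rose and 9 did not pass, with a median IgE term of 0.83 against -0.02 over all genes tested. Egln3, a prolyl hydroxylase that marks HIF for degradation, went from 6.41 and 6.47 to 9.66 and 10.11, 10.9-fold (log2 3.44, SE 0.12, limma adjusted p = 0.00017). Bnip3, a mitophagy receptor, went from 8.11 and 7.86 to 10.35 and 10.35, and P4ha1, a collagen prolyl hydroxylase, from 8.27 and 7.91 to 10.21 and 10.08. The glycolytic enzymes Tpi1, Pgk1 and Aldoc went from 9.15 and 8.65 to 10.68 and 10.81, from 9.75 and 9.19 to 11.17 and 11.40, and from 7.14 and 6.21 to 8.11 and 8.84. Without the Slpi-/- pair 18 genes of the list rose, without the B6 pair 21 rose and 1 fell, and the medians were 0.80 in B6 and 0.82 in Slpi-/- cells. Vegfa, the angiogenic factor, did not pass, at 9.44 and 10.31 without and 9.96 and 9.38 with IgE.

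Promoter windows of risen members show the HIF core, and 4 are printed to let a reader see it in its place. They come from RefSeq (GRCm38.p6), 250 bases before to 50 after each gene's start, and capitals mark ACGTG on either strand (CACGT read on the other), with CACGTG where matches on both strands overlap.
Pgk1, chrX:106186935-106186988, plus strand: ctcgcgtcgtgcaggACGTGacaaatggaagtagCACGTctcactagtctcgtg
Bnip3, chr7:138909594-138909629, minus strand: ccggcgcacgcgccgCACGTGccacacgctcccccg
P4ha1, chr10:59323265-59323295, plus strand: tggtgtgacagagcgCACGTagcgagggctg
Egln3, chr12:54204084-54204118, minus strand: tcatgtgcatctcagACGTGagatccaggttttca
Of 20 risen genes of the list with a promoter in the table, 16 held ACGTG (80%), and so did 7 of the 8 listed genes that did not pass. The core was in 21.8% of the 27025 promoters held there, in 27.8% of the 10744 of genes tested and in 36.5% of the 1341 of genes that rose. A match is a run of letters, not a binding site, and the list was drawn up from known hypoxia targets. The AP-1 site TGANTCA was searched in the same way. It was in 5.82% of the genes that rose, 6.58% of those tested and 7.51% of those that fell. In the inflammatory cytokine list 3 of 6 risen genes held it, against 1 of 5 that did not pass and 1 of 3 that fell.

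Genes of protein folding in the ER also rose as a group. The unfolded protein response (UPR) is known to raise ER chaperones when many secreted proteins are made, and the integrated stress response raises amino acid transporters and synthesis enzymes through ATF4. Of 42 genes tested, 25 rose, 1 fell and 16 did not pass, with a median of 0.57. Hspa5, the ER chaperone BiP, went from 10.42 and 9.69 to 11.72 and 11.64, 3.08-fold (log2 1.62, SE 0.17, limma adjusted p = 0.0020). Hyou1, a chaperone of the HSP70 class, went from 8.40 and 7.94 to 10.14 and 10.01, and Pdia6, a disulfide isomerase, from 8.45 and 7.70 to 9.87 and 9.71. Sdf2l1, an ER chaperone partner, went from 9.40 and 8.37 to 10.56 and 10.55, and Creld2 from 8.69 and 8.19 to 9.79 and 10.01. These genes started lower in Slpi-/- cells and ended at like signals, and the list's medians were 0.42 in B6 and 0.71 in Slpi-/- cells. Psat1, an enzyme of serine synthesis, went from 6.74 and 5.99 to 7.98 and 8.06. The count was 14 risen genes without the Slpi-/- pair and 25 without the B6 pair.

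The ER stress element is the sequence to which the UPR factors ATF6 and NF-Y are known to bind. It was searched as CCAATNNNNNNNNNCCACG on both strands, and its end, ACG, can overlap the core ACGTG. Of 22 risen genes of the list with a promoter in the table, 8 held it (36.4%), against 0 of the 13 that did not pass and 18 of all 10744 genes tested (0.168%) and 0.137% of all promoters. Of the 8, the windows of 4 are shown, with the fixed letters in capitals; in Creld2 the element lies on the opposite strand and starts with CGTGG.
Hspa5, chr2:34772010-34772058, plus strand: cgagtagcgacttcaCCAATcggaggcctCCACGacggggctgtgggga
Hsp90b1, chr10:86705623-86705671, minus strand: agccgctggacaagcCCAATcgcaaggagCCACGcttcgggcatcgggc
Pdia6, chr12:17266476-17266524, plus strand: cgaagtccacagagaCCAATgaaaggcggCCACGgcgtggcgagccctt
Creld2, chr15:88819505-88819553, plus strand: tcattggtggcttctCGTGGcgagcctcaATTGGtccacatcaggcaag
The list was drawn up from known UPR targets, so that its share of elements is a description of these genes and of no others. Hsp90b1, the ER chaperone GRP94, was named for its window after its values were seen, and it went from 10.98 and 10.73 to 11.81 and 11.85.

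Among the 32 response lists, that of ribosome biogenesis and MYC-linked genes had the largest share of risen genes, with 32 of 33 rising and a median of 0.97. The lists and their members were chosen with earlier results of these data known, which can favour such a rank. MYC is a transcription factor known to raise the machinery that makes ribosomes and nucleotides in growing cells, mostly through the E-box CACGTG. Myc itself went from 8.29 and 8.0 to 9.64 and 9.63, 2.81-fold (log2 1.49, SE 0.11, limma adjusted p = 0.00096). Nme1, a nucleoside diphosphate kinase, went from 6.63 and 6.42 to 8.23 and 8.27, and Polr1b, a subunit of RNA polymerase I, from 6.61 and 6.39 to 8.24 and 8.10. Nop58 and Dkc1, proteins of small nucleolar ribonucleoproteins, went from 6.01 and 5.75 to 7.49 and 7.47 and from 6.05 and 5.69 to 7.39 and 7.36. Odc1, the first enzyme of polyamine synthesis, went from 6.42 and 6.09 to 7.73 and 7.83. The genotypes gave nearly the same medians, 0.97 in B6 and 1.08 in Slpi-/- cells. Max, the dimerisation partner of MYC, was the gene of the list that fell, from 9.48 and 9.76 to 8.97 and 9.06 (limma adjusted p = 0.017), and it was named after its values were seen. The count was 21 without the Slpi-/- pair and 28 without the B6 pair. Of 25 risen members with a promoter in the table, 8 held CACGTG (32.0%), which contains ACGTG. So did the promoter of Max, which fell. The E-box was in 11.1% of all genes tested, in 14.9% of the 1341 genes that rose and in 8.09% of all promoters. The list was drawn up to hold MYC-linked genes, so that its share describes these genes and no others.

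Chaperones of the cytosol and mitochondria and enzymes of cholesterol synthesis rose in part. Of 17 heat shock genes 7 rose and 10 did not pass, among them Hsp90aa1, which went from 9.36 and 9.07 to 10.37 and 10.31, and the mitochondrial chaperonin pair Hspd1 and Hspe1, which rose by 0.89 and 0.91. Of them, 3 passed without the Slpi-/- pair. Of 27 genes of cholesterol synthesis and sterol regulation, 10 rose and 3 fell (median 0.39). Sqle, the squalene epoxidase, went from 7.06 and 6.40 to 7.84 and 8.30, and Insig1, a sterol sensor, from 7.23 and 6.73 to 8.22 and 8.57. Abca1, the exporter of cholesterol, went the other way, from 7.61 and 7.61 to 6.27 and 6.17. The count of risen sterol genes was 2 without the Slpi-/- pair and 14 without the B6 pair, and the medians were 0.18 in B6 and 0.59 in Slpi-/- cells.

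**Figure D3:**
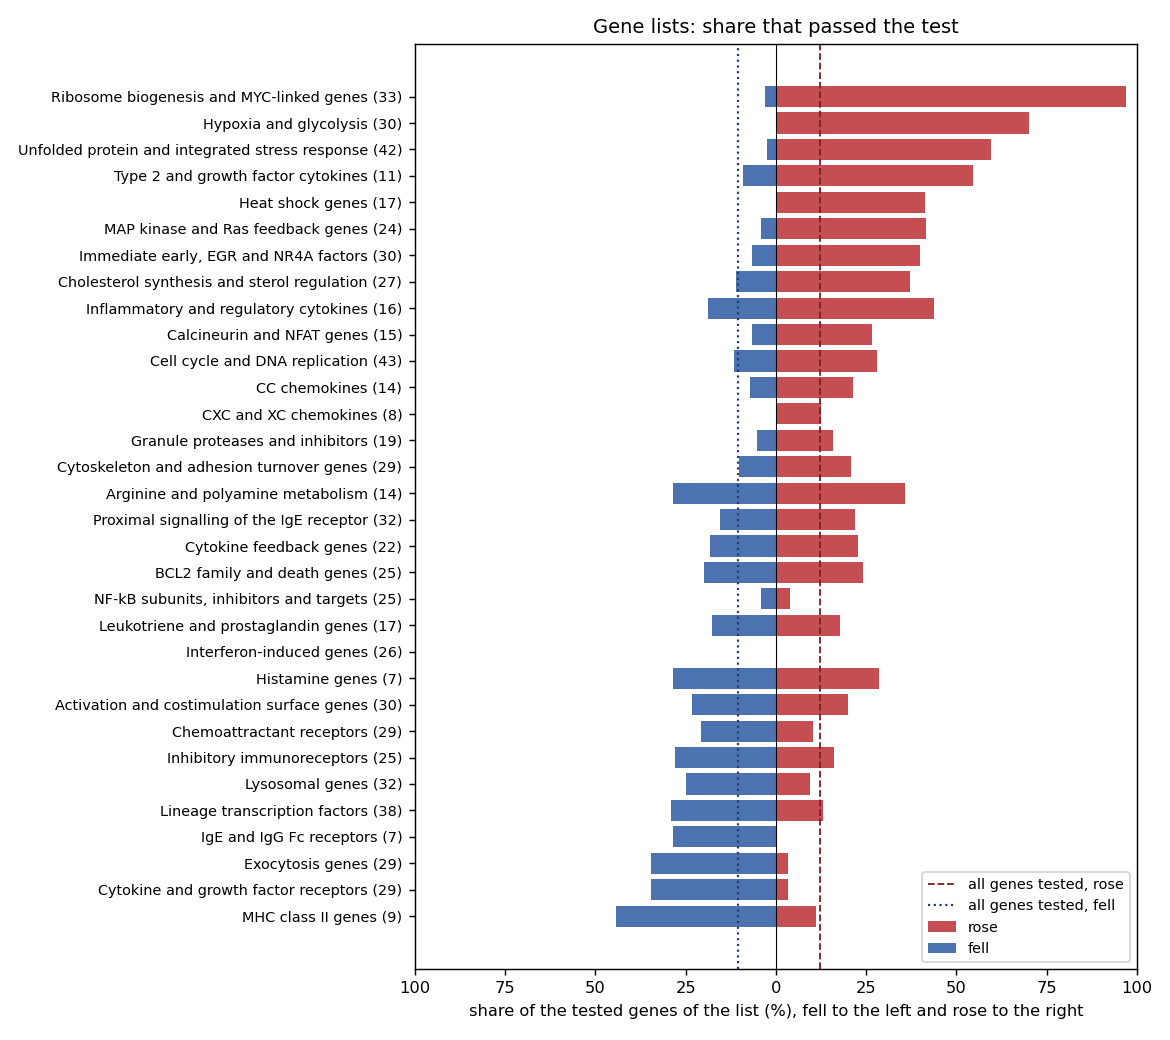
Share (%) of the tested genes of 32 gene lists that rose (right) or fell (left) with IgE and antigen, with the number tested in parentheses and the shares over all 13571 genes (12.2% rose, 10.6% fell) as dashed and dotted lines. Ribosome biogenesis, hypoxia and glycolysis, and the unfolded protein response reach furthest right, and MHC class II, cytokine receptor and exocytosis genes furthest left. The lists were chosen with earlier results of these data known, which can favour such ranks.

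Of 25 BCL2 family and death genes, 6 rose (24%) and 5 fell (20%), against 12.2% and 10.6% over all genes tested. Bcl2, which blocks the mitochondrial death pathway, went from 10.18 and 10.07 to 11.16 and 11.08, 1.99-fold (limma adjusted p = 0.0032), and Bcl2l11, the pro-death gene Bim, went from 8.64 and 8.93 to 8.14 and 8.21. Without the Slpi-/- pair 2 of the list rose and the falls were lost, and without the B6 pair 5 rose and 2 fell.

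In the cell cycle list, 12 of 43 genes rose (27.9%) and 5 fell (11.6%), against 12.2% and 10.6% over all genes tested. The share that fell was thus near that over all genes. Mcm2, a subunit of the replicative helicase, went from 7.10 and 6.55 to 8.09 and 7.85, and Tyms and Cdk6, thymidylate synthase and a G1 kinase, from 7.38 and 7.16 to 8.40 and 8.32 and from 8.60 and 8.16 to 9.27 and 9.52. E2f8 and E2f2, factors that act on replication genes, went down from 9.34 and 9.47 to 7.57 and 7.57 and from 8.12 and 7.98 to 6.67 and 7.23. The genotypes parted in this list: its median was -0.18 in B6 and 0.62 in Slpi-/- cells, 1 gene rose and 10 fell without the Slpi-/- pair, and 17 rose and 3 fell without the B6 pair. Mki67, a proliferation marker, read 8.32 on the unstimulated B6 array, 6.60 on the B6 array with IgE, and 6.46 and 7.45 on the Slpi-/- arrays. The unstimulated B6 array is also the one with the highest Mpo signal, and the part of other cells in this list was not tested.

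Of 38 lineage transcription factor genes, 5 rose and 11 fell, against 3 and 5 without the B6 pair and 2 and 3 without the Slpi-/- pair. Irf4, a factor induced by antigen receptors, went from 5.33 and 5.76, above background only on the Slpi-/- array, to 6.42 and 6.70, and Nfil3, a basic leucine zipper factor, from 9.25 and 9.28 to 9.93 and 10.25. Nfe2, a factor of platelet formation, went from 9.51 and 9.61 to 8.44 and 8.66, Ikzf2 (Helios) from 9.81 and 10.01 to 9.09 and 8.73, and Lmo4 from 8.82 and 8.77 to 7.87 and 7.78. Gata2, a factor that basophils require, read 12.20 and 12.27 without and 12.02 and 12.10 with IgE and did not pass. Of 9 MHC class II genes 1 rose and 4 fell, H2-Aa going from 7.44 and 8.35 to 6.23 and 7.69 and H2-DMa from 7.08 and 6.75 to 7.52 and 7.63, and without the B6 pair no gene of this list passed and without the Slpi-/- pair 2 fell. Among 30 activation and costimulation surface genes, 6 rose and 7 fell, against 6 and 4 without the B6 pair and 4 and 5 without the Slpi-/- pair. Cd69, an early activation antigen, went from 9.92 and 9.23 to 10.56 and 10.62, and Itgb2, the β2 integrin chain, from 12.05 and 12.05 to 10.99 and 10.95, a 2.12-fold fall (limma adjusted p = 0.0014).

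The remaining lists were mixed. Of 15 calcineurin and NFAT genes 4 rose and 1 fell, of 14 genes of arginine and polyamine metabolism 5 rose and 4 fell, and of 29 cytoskeleton and adhesion turnover genes 6 rose and 3 fell. Some lists given above also had shares to set against the 12.2% risen and 10.6% fallen over all genes tested. They were 17.6% and 17.6% for leukotriene and prostaglandin genes and 22.7% and 18.2% for cytokine feedback genes. Inhibitory receptors had 16% and 28%, lineage factors 13.2% and 28.9%, and activation and costimulation genes 20% and 23.3%. Type 2 and growth factor cytokines had 54.5% and 9.09%, and inflammatory and regulatory cytokines 43.75% and 18.75%. For heat shock genes the shares were 41.2% and 0%, for sterol genes 37.0% and 11.1%, and for MHC class II genes 11.1% and 44.4%. Without the Slpi-/- pair 2 cytoskeleton and adhesion genes rose, and without the B6 pair 9. Of the marker lists not described above, 3 of 12 NK and T cell, 1 or 2 of 7 B cell and 2 of 5 erythroid genes lay above background on each array.

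Some probe sets lie on microRNA (miRNA) genes. The signals come from RNA of the miRNA gene or its host transcript, not from the mature miRNA alone, and the genes named here were chosen after their values were seen. Of 125 miRNA genes tested, 10 rose and 3 fell, a smaller share than over all genes (12.2% and 10.6%), and 5 passed without the B6 pair and 7 without the Slpi-/- pair. Mir155, which lies in a transcript known to be induced in activated leukocytes, went from 5.97 and 6.55 to 7.13 and 7.09 (limma adjusted p = 0.031). Mir31 went from 6.12 and 6.34 to 6.98 and 6.97 (limma adjusted p = 0.0051), and Mir146b from 7.02 and 7.04 to 7.70 and 7.95 (limma adjusted p = 0.0060). Mir340 fell the most, from 7.56 and 7.94 to 6.67 and 6.58 (limma adjusted p = 0.0028). For all 4 the groups did not overlap, which a choice among genes already called on these arrays favours. Mir31 and Mir340 passed in each of the 11 limma alternatives, while Mir155 passed in 8 and Mir146b in 10. The mature sequences of these 4 genes in RefSeq (GRCm38.p6) are given 5′ to 3′, with the seed (bases 2 to 8) in capitals, since the seed sets which messages a miRNA pairs with.
mmu-miR-155-5p, chr16:84714143-84714165, plus strand: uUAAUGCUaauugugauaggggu
mmu-miR-155-3p, chr16:84714182-84714202, plus strand: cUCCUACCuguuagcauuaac
mmu-miR-31-5p, chr4:88910614-88910635, minus strand: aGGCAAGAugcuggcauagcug
mmu-miR-31-3p, chr4:88910577-88910599, minus strand: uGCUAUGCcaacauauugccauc
mmu-miR-146b-5p, chr19:46342790-46342811, plus strand: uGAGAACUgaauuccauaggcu
mmu-miR-146b-3p, chr19:46342828-46342849, plus strand: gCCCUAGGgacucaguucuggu
mmu-miR-340-5p, chr11:50069720-50069741, plus strand: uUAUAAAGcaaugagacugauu
mmu-miR-340-3p, chr11:50069762-50069783, plus strand: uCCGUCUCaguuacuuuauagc
The 13 called miRNA genes give 25 mature sequences with 25 different seeds, so that no seed is shared among them.

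The question the pairs address is whether BMBs with and without SLPI answer IgE and antigen alike. Each genotype was first taken on its own, with 1 array against 1 and therefore no test. In B6 BMBs 238 genes were at least 2-fold higher with IgE (1.91% of 12435 above background on that pair) and 215 at least 2-fold lower (1.73%). In Slpi-/- BMBs 439 genes were at least 2-fold higher (3.63% of 12088) and 270 at least 2-fold lower (2.23%). Of the higher genes 178 were shared, 74.8% of the B6 list and 40.5% of the Slpi-/- list, and of the lower genes 120 were shared, 55.8% and 44.4%. Across 12631 genes above background on any BMB array, the log2 differences of the genotypes had a Pearson correlation of 0.76 and a Spearman correlation of 0.69. Genes are not independent replicates, and no p is given. All 1655 risen and all 1436 fallen genes moved the same way in both genotypes, as a fit of both pairs tends to select, against 72.5% of all genes tested.

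**Figure D4:**
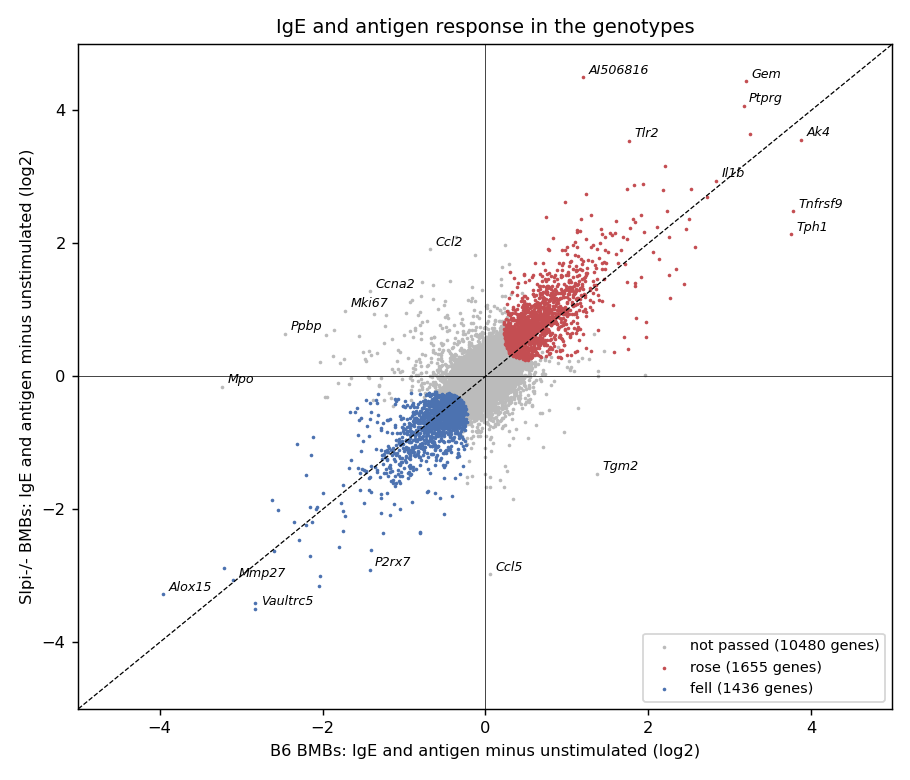
Log2 difference between stimulated (IgE and antigen) and unstimulated BMBs in B6 (horizontal) and Slpi-/- cells (vertical), 1 point a gene, for 13571 genes, with the line of equal differences dashed. Risen and fallen genes lie in the upper right and lower left, and Mpo, Ppbp, Ccl5, Tgm2, Ccna2, Mki67 and Ccl2 lie away from the line.

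A fit with a genotype by IgE term tested the difference of the responses directly. limma called 0 of 13571 genes (0%), with 1045 at an unadjusted p below 0.05 (7.70%) and a lowest adjusted p of 0.11. With a trend of the variance on signal, 176 genes were called, of which the difference was more positive in Slpi-/- cells in 135 and more negative in 41. That fit has 1 residual degree of freedom, from the BMEos arrays, so that a missed threshold does not show that the genotypes answered alike. The BMEos arrays without and with LPS also differ in sex-linked genes. Xist read 4.15 and 4.90 on the unstimulated B6 and Slpi-/- BMEos arrays and 9.72 and 9.66 with LPS. Eif2s3y read 8.20 and 8.45 without and 3.22 and 3.54 with LPS. The part of this in the spread was not tested. The largest differences of the IgE response were those of AI506816 (3.30), Ppbp (3.11), Mpo (3.08) and Ccl5 (-3.03), given as the log2 response in Slpi-/- minus that in B6 cells. Ccl5, a T cell and leukocyte attractant, read 7.55 and 7.60 on the B6 arrays without and with IgE and 9.97 and 6.99 on the Slpi-/- arrays. Ccl2, a monocyte attractant, read 6.74 and 6.06 on the B6 arrays and 6.23 and 8.15 on the Slpi-/- arrays. Mpo and Ppbp are the neutrophil and platelet genes that stood apart on the unstimulated B6 array and on the B6 array with IgE. For the cytokines the difference was smaller: 1.04 for Il13 (limma adjusted p = 0.22), 0.62 for Il6 (0.54), 0.49 for Tnf (0.66) and 0.21 for Il4 (0.92).

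The risen genes started lower in Slpi-/- cells and ended level. Over the 1655 genes, the median of Slpi-/- minus B6 was -0.17 without IgE and -0.01 with IgE, and the median rise was 0.54 in B6 and 0.71 in Slpi-/- cells. The rise was larger in Slpi-/- cells for 77.5% of these genes. Over the 1436 fallen genes, the same median was 0.06 without and -0.01 with IgE, and the median fall was -0.54 in B6 and -0.61 in Slpi-/- cells, larger in Slpi-/- cells for 62.2% of them. Over all genes tested the medians were -0.02 and -0.01, and 60% had the larger difference in Slpi-/- cells. The sets were chosen on the same 4 arrays and each value rests on 1 array per condition, so that these medians are a description with no test. Pearson correlations between arrays across named genes were 0.993 between the stimulated arrays, 0.992 between the unstimulated arrays, 0.982 between the B6 arrays and 0.975 between the Slpi-/- arrays.

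**Figure D5:**
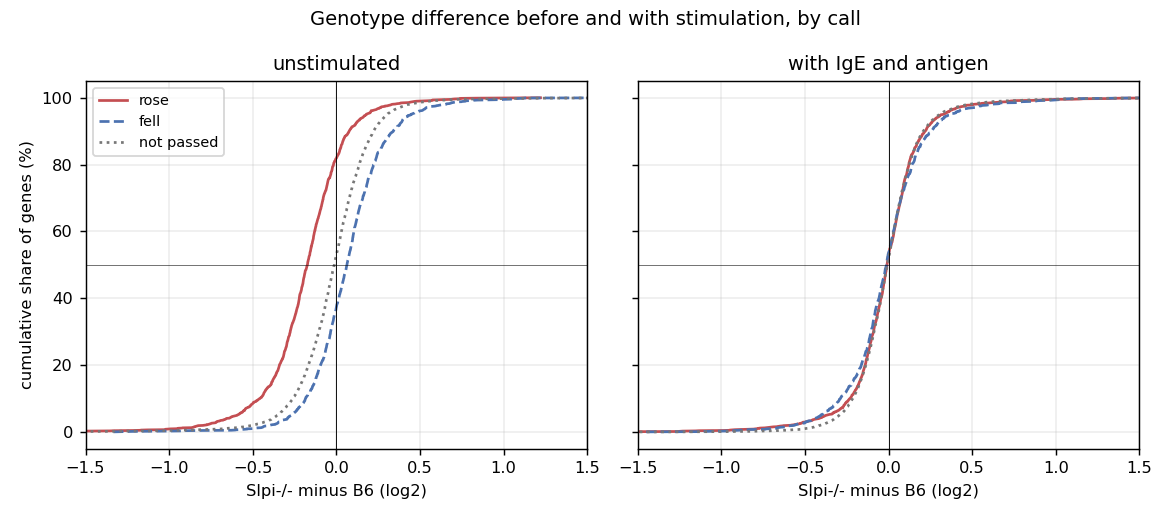
Cumulative share (%) of risen, fallen and other tested genes by the log2 difference between Slpi-/- and B6 BMBs, without stimulation (left) and with IgE and antigen (right). The risen genes lie to the left without stimulation (median -0.17), and the curves come together with it (medians -0.01 and -0.01).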

How the data were processed

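RNA of the BMBs was hybridised to Affymetrix GeneChip Mouse Gene 1.0 ST arrays. The authors summarized the probe signals with RMA in the package affy and deposited them as log2 values, which were used as deposited. RMA shares a distribution over all arrays and compresses large differences. Of 34760 probe sets, 21640 carry 1 symbol in the platform annotation, and these stand for 19937 genes. For the 954 genes with several probe sets, the one with the highest mean was taken. Tests used limma 3.58.1 in R 4.3.3 (lmFit, eBayes, Benjamini-Hochberg adjustment, threshold 0.05) on all 10 arrays, with separate baselines for the genotypes of each cell type and terms for IgE and for LPS (2 residual degrees of freedom, prior 4.48). A fold change is that of the log2 RMA scale. For a gene not above background on either array of a group, the fold is a bound against the higher of its signal and the background.

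Python 3.11.15 with pandas 2.3.3, numpy 2.4.6 and matplotlib 3.10.9 made the tables and figures, and the script of the limma fits was tested on simulated data. The members and the 32 response and 11 marker lists were chosen with earlier results of these data known. Of 860 genes on the response lists 791 were measured. Genes were named as the 25 with the largest rise and the 25 with the largest fall, up to 6 members of each list (those past the test first, by size), the markers, the study's genes and the 10 with the largest genotype difference. Csf1, Il1rn, Ltb, Ebi3, Ccl22, Fcer1g, Fos, Stat5b, Vegfa, Il4ra and the miRNA and histone genes fall outside this rule and were chosen after their values were seen. Coordinates are given only for sequences of the RefSeq tables. Precision is limited by the number of arrays, for which no batch is named. The alternatives are named with their effect in the closing section.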

Additional observations from a re-analysis of the deposited data

Results flagged for a closer look

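Tgm2, a transglutaminase, and Ccna2, a cyclin of S phase and mitosis, were at least 2-fold changed with IgE in opposite directions in the genotypes. Tgm2 read 9.05 and 10.43 on the B6 arrays without and with IgE and 10.64 and 9.17 on the Slpi-/- arrays, a difference of the responses of -2.84 on the log2 scale (limma adjusted p = 0.11). Ccna2 read 7.95 and 6.53 on the B6 arrays and 5.90 and 7.19 on the Slpi-/- arrays, a difference of 2.70 (limma adjusted p = 0.11). Neither passed the test of the difference. The unstimulated B6 array, where Ccna2 was highest, also had the highest Mpo signal (8.84), and the part of other cells was not tested.

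Probe sets without a single gene symbol were outside the comparisons. Of 1321 probe sets with several symbols, 13 were at least 2-fold higher with IgE in both genotypes, and 1 was at least 2-fold lower. Of 11799 probe sets with no symbol listed, 62 were at least 2-fold higher and 12 at least 2-fold lower in both.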

How the results depend on the processing

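Of the genes that rose or fell, 461 and 356 were called in each of the 11 limma alternatives. Quantile normalization (1511 rose, 1571 fell), centring on the array median (1535, 1411), the mean of probe sets (1657, 1430), no filter on signal (1243, 1042), a background at the 99th percentile (1735, 1559), a filter on BMB arrays (1698, 1494), limma with a trend of the variance (1858, 1667), the BMB arrays alone (1472, 1259) and no genotype block (1833, 1626) kept both counts within 1.5 times. Leaving out a pair gave 558 to 1250 risen and 545 to 889 fallen genes. All 1655 risen and 1436 fallen genes had the same sign in both genotypes, so that leaving out a pair could not turn a direction. The methods' t-test called 0 genes in either direction (1516 at an unadjusted p below 0.05), with 1 residual degree of freedom. With 1.5-fold as the minimum, 773 genes were higher and 734 lower in B6, 1278 and 876 in Slpi-/- cells, and 626 and 455 in both, and with 3-fold these were 50 and 47, 107 and 58, and 37 and 25. The Pearson r of the genotypes across genes was 0.67 with no filter and 0.80 with a background at the 99th percentile. The genotype by IgE term was called in 176 genes with a trend of the variance, and the cause was not tested. The sign of the IgE term of Ccna2 (-1.41 to 1.28 when a pair was left out) and of Tgm2 (-1.46 to 1.38) turned with the pair, as each genotype has its own direction. The labels number no replicates, and the genotypes serve as the pairs in the model. With 1 array per condition, small changes and those of genes near background are the least certain.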

Other observations

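Gene families were also grouped by their symbols, after the values were seen, and their counts stand against 12.2% risen and 10.6% fallen over all genes tested. Of 49 proteasome subunit genes 25 rose and 1 fell, with a median IgE term of 0.41 on the log2 scale, but without the Slpi-/- pair 0 of them passed and without the B6 pair 18 did. Of 77 mitochondrial ribosomal protein genes 24 rose, with a median of 0.28, and 4 passed without the Slpi-/- pair. Of 64 cytosolic ribosomal protein genes 5 rose and 5 fell (median -0.07), and 1 passed without the Slpi-/- pair. Of 43 small nucleolar RNA genes, whose products guide the modification of ribosomal RNA, 19 rose and 2 fell (median 0.40), and 11 passed without the B6 pair and 13 without the Slpi-/- pair.

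Of 25 histone genes 12 fell, with a median of -0.48. H1f2 read 11.01 and 11.09 on the unstimulated B6 and Slpi-/- arrays and 8.80 and 9.60 with IgE, and H1f5 9.06 and 8.78 without and 7.49 and 7.89 with IgE. Histone genes have near-identical copies that share probes, so that their signals are not independent of each other. Without the B6 pair 5 of the family passed, and without the Slpi-/- pair 11.

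Cd34, a surface glycoprotein of progenitor cells on the progenitor marker list, rose from 8.62 and 8.97 to 9.85 and 9.94 (log2 1.10, limma adjusted p = 0.0018), while Kit on the same list fell from 6.89 and 6.79 to 6.47 and 5.85 (limma adjusted p = 0.017).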
